A study of Mus musculus with 6 samples.

Results

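Scavenger receptors are cell-surface and endosomal proteins that bind modified lipoproteins, and through them macrophages take up oxidized LDL without the feedback that limits uptake by the LDL receptor. Macrophages loaded with cholesterol in this way become foam cells, the lipid-filled cells of the atherosclerotic plaque. The receptors fall into structural classes that are not related to each other in sequence, so they were examined one by one. The 6 members were the rows of the deposited table listed for Cd36, Msr1, Marco, Scarb1, Olr1 and Cd68, and all 6 were found among 81690 transcript rows. The rows carry Ensembl transcript identifiers, and each gene symbol was taken from the member list, since the reference gene table held 0 of the 81690 identifiers.

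The arrays measured resident peritoneal macrophages of female C57BL/6J mice aged 8 to 12 weeks, obtained by lavage of the abdominal cavity and kept as the cells that adhered to the plate. In each of 3 replicate experiments the cells of several mice were pooled and divided between wells, which received either oxLDL (human LDL oxidized with copper sulfate) at 25 µg/mL or vehicle (PBS) for 24 h, giving 3 oxLDL and 3 vehicle arrays. The cells were cultured in medium with serum, and the oxLDL cultures were seen by light microscopy to have formed foam cells. Each value is the log2 summary of the probes of 1 transcript, so a difference of 1 is a 2-fold change, and levels were compared between arrays but not between genes. All 6 rows passed the brightness filter (a mean over the 6 arrays above 8.74), as did 40845 rows in all. Differences were tested on these rows with limma, and a q-value, the false discovery rate at which a row would be accepted, below 0.05 was taken as a change. Array medians were 8.64 to 8.80. The median oxLDL minus vehicle difference of the tested rows was -0.06, -0.02 and -0.24 (log2) in experiments 1, 2 and 3.

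The receptor response to oxLDL was divided. Marco fell 7.63-fold, Olr1 fell 1.88-fold and Scarb1 fell 1.84-fold, whereas Cd36 rose 1.47-fold and Cd68 rose 1.19-fold. The Marco mean with oxLDL lay below the filter value and was not shown to exceed background, so its fold is that of the deposited values. The Cd68 call was lost under several other settings. Msr1 did not pass the test. Thus 3 of 6 members were lower at a q-value below 0.05 (4 of 6 without oxLDL replicate 2), where 30.8% of all tested rows were lower. At the same threshold 2 of 6 were higher (1 of 6 where the Cd68 call was lost), where 10.7% of all tested rows were higher. With the additional requirement of a 2-fold change in the deposited values, 1 member was lower and 0 were higher, against 2.45% and 0.686% of all tested rows. That member was Marco, which passed the filter through its vehicle arrays, so the count carries the same limit as its fold. The oxLDL and vehicle arrays did not overlap for 5 of 6 members, and they did not overlap for 45.2% of all tested rows. With only 6 members these counts are not read as a result about the receptors as a group, and each receptor is described by its own values. The median log2 fold-change was -0.53 over the members and -0.10 over all tested rows. Since these are bulk samples, fewer cells of a type and less RNA per cell cannot be told apart.

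**Figure D1:**
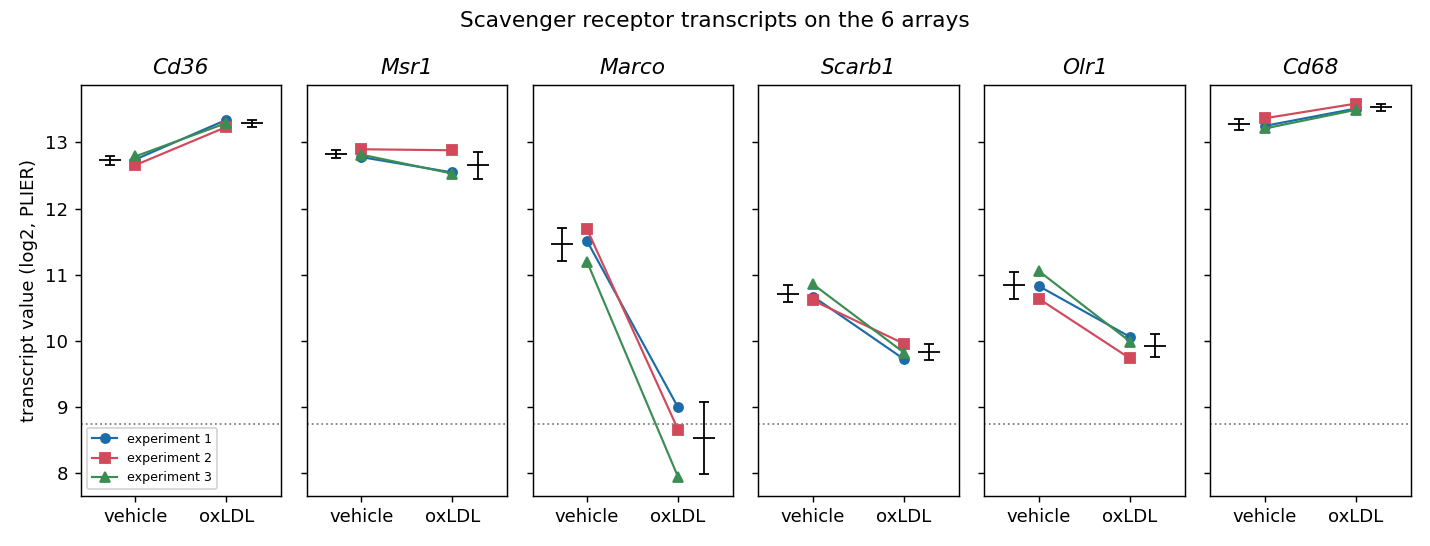
Transcript values (log2, vertical axis shared by the panels) of the 6 receptors on the vehicle and oxLDL arrays, with a line for each replicate experiment, black bars for the mean ± SD of 3 arrays and a dotted line at the filter value of 8.74. Marco drops from above 11 to between 7.94 and 8.99, while the other 5 receptors move by about 1 log2 unit or less.

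The sequences just upstream of the transcription start are shown for the 4 members that the promoter table held, Cd36 and Cd68, which rose, and Marco and Olr1, which fell, so that the regions from which they are transcribed can be set side by side. They are the 250 bases before a RefSeq start site in the GRCm38.p6 assembly, all on the minus strand of the chromosome and written 5′ to 3′ in the direction of transcription. Cd36 has several start sites and only 1 is shown. The positions are chr5:17835897-17836146 for Cd36, chr11:69666171-69666420 for Cd68, chr1:120505025-120505274 for Marco and chr6:129507166-129507415 for Olr1. Capitals mark, on either strand, GAGGAA (the core bound by PU.1, the lineage factor of macrophages), TGANTCA (AP-1) and AGGTCA (the half-site of nuclear receptors such as PPAR and LXR).
Cd36: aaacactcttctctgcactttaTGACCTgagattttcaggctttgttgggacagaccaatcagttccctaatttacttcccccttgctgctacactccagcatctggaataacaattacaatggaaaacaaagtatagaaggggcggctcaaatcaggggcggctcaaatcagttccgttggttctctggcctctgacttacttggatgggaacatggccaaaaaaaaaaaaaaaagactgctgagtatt
Cd68: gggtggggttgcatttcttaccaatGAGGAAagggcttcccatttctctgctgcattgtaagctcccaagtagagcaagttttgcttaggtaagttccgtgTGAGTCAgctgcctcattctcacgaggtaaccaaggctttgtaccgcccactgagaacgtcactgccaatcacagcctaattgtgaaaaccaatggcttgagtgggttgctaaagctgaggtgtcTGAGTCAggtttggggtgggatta
Marco: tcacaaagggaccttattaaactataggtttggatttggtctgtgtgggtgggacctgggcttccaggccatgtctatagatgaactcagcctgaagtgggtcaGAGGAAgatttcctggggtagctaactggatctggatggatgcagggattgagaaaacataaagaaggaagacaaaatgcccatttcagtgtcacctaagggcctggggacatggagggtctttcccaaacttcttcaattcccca
Olr1: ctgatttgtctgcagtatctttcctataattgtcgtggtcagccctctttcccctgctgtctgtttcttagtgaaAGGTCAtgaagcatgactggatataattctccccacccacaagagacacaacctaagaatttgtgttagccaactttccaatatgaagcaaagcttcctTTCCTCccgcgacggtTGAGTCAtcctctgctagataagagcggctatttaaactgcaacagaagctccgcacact

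With only 4 windows, the motifs cannot be related to the direction of the response, and each is listed with its share of all windows. GAGGAA was present upstream of Cd68, Marco and Olr1, and in 23.3% of the 32851 promoter windows of the same length in the reference. TGANTCA was present at 2 positions upstream of Cd68, which rose, and at 1 position upstream of Olr1, which fell, and in 6.75% of all windows. AGGTCA was present upstream of Cd36 and of Olr1, which moved in opposite directions, and in 14% of all windows. TGACNNNGC, the core of the antioxidant response element bound by NRF2, was in 0 of the 4 windows and in 10.2% of all windows. It shares its first letters with the AP-1 motif, but without a match here it could not overlap one. Matches of the other motifs did not overlap each other in the windows shown. The motifs were chosen after the receptor values were known, and a match of letters is not evidence that a factor binds there. Promoter windows of Msr1 and Scarb1 were not analysed here.

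The class A receptors are trimers with a collagen-like stalk that bind polyanionic ligands, modified LDL and bacteria among them. Marco (ENSMUST00000027639_at), the class A receptor typical of resident and inflammatory macrophages, was the member that changed most. Its value with vehicle was 11.51, 11.69 and 11.19 (log2) in experiments 1, 2 and 3, and with oxLDL it was 8.99, 8.66 and 7.94. All oxLDL arrays lay below all vehicle arrays, with a gap of 2.20 between the groups. The means were 11.46 ± 0.25 with vehicle and 8.53 ± 0.54 with oxLDL (SD, n = 3), a log2 fold-change of -2.93 (standard error 0.23, 95% interval -3.45 to -2.42, q = 7.94e-06 from limma). The size of the fall varied between experiments, at -2.52, -3.03 and -3.25, and the spread among the oxLDL arrays was the largest of any member. Marco passed the brightness filter through its vehicle arrays, and no detection call was read. Its fold-change, interval and q-value therefore describe the deposited values only, and the size of the fall in its RNA was not determined.

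Msr1 (ENSMUST00000026021_at), the class A receptor through which uptake of modified LDL by macrophages was first described, did not pass the test. Its value was 12.78, 12.90 and 12.82 (log2) with vehicle and 12.55, 12.88 and 12.53 with oxLDL. The oxLDL array of experiment 2 lay within the range of the vehicle arrays and the oxLDL arrays of experiments 1 and 3 lay below it, so the groups overlapped. The log2 fold-change was -0.18 (standard error 0.11, 95% interval -0.43 to 0.07, q = 0.099 from limma), with same-numbered differences of -0.23, -0.02 and -0.29. The interval thus admits a modest fall as well as no change, and it does not reach a 2-fold fall. Without the oxLDL array of experiment 2 the log2 fold-change was -0.29 (q = 0.0154 from limma), and without both arrays of experiment 2 it was -0.26 (q = 0.0562 from limma), which does not pass the threshold. Other settings made the fall smaller. It was -0.12 (q = 0.203 from limma) without the oxLDL array of experiment 3, and -0.09 (q = 0.154 from limma) with quantile normalization.

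The class B receptors Cd36 and Scarb1 are homologous proteins that cross the membrane at both ends. Cd36 (ENSMUST00000082367_at) binds oxLDL and long-chain fatty acids and is a target gene of PPARγ. Its value was 12.74, 12.66 and 12.79 (log2) with vehicle and 13.34, 13.23 and 13.29 with oxLDL, so that every oxLDL array was above every vehicle array. The arrays of 1 group lay close together, and the rise was much the same in the 3 experiments, at 0.60, 0.58 and 0.50. The mean rose from 12.73 ± 0.07 to 13.29 ± 0.05 (SD, n = 3), a log2 fold-change of 0.56 (standard error 0.09, 95% interval 0.37 to 0.75, q = 0.000458 from limma). Among the tested rows 1109 rose further than Cd36, or 2.72%. No other member rose as much.

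Scarb1 (ENSMUST00000086075_at) encodes SR-BI, the receptor for HDL, which exchanges cholesterol with lipoproteins and also binds oxidized LDL. Its value was 10.67, 10.61 and 10.86 (log2) with vehicle and 9.72, 9.96 and 9.82 with oxLDL, again with no overlap but in the opposite direction to Cd36. The mean fell from 10.71 ± 0.13 to 9.83 ± 0.12 (SD, n = 3), a log2 fold-change of -0.88 (standard error 0.10, 95% interval -1.11 to -0.65, q = 8.76e-05 from limma). The same-numbered differences were -0.95, -0.65 and -1.03, of which 1 reached a 2-fold fall. Further falls were seen in 3.48% of the tested rows. The change of Cd36 exceeded that of Scarb1 by 1.55, 1.23 and 1.54 (log2) in experiments 1, 2 and 3, or 1.44 ± 0.18 (SD, n = 3). Both class B receptors therefore kept their separate directions in each experiment, although the difference between them was not tested.

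**Figure D2:**
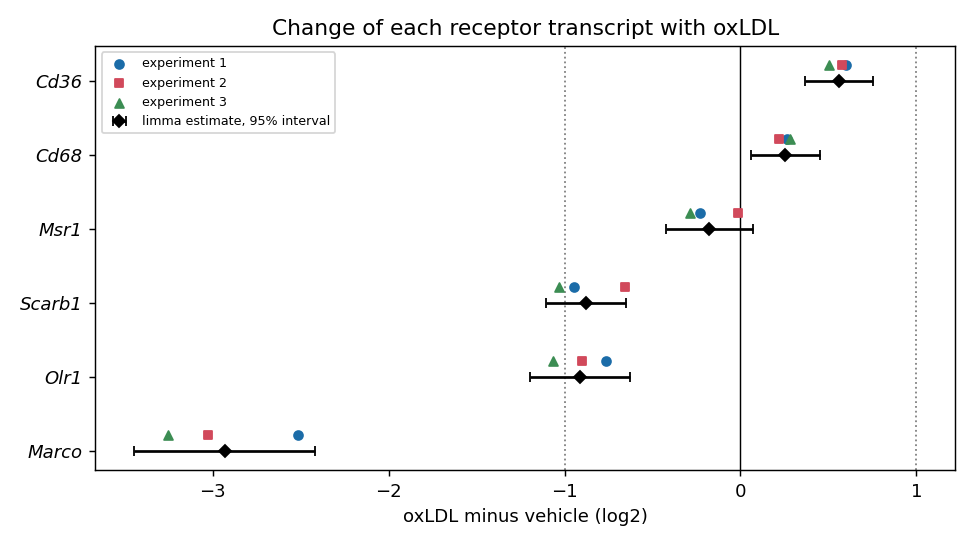
Change of each receptor (oxLDL minus vehicle, log2, horizontal axis), with coloured symbols for the 3 replicate experiments, black diamonds for the limma estimate, bars for its 95% interval and dotted lines at a 2-fold change in either direction. The interval of Msr1 includes 0, those of Scarb1 and Olr1 include the 2-fold line, and that of Marco lies wholly beyond it. The interval of Marco describes the deposited values, as its oxLDL signal was not shown to exceed background.

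Olr1 (ENSMUST00000032265_at) encodes LOX-1, a C-type lectin of class E that was identified as the endothelial receptor for oxLDL and is also made by macrophages. Its value was 10.83, 10.63 and 11.05 (log2) with vehicle and 10.06, 9.73 and 9.99 with oxLDL. All oxLDL arrays were lower than all vehicle arrays, and experiment 2 had the lowest array of both groups. The mean fell from 10.84 ± 0.21 to 9.93 ± 0.17 (SD, n = 3), a log2 fold-change of -0.91 (standard error 0.13, 95% interval -1.20 to -0.63, q = 0.000249 from limma). The fall was -0.77, -0.90 and -1.06 in experiments 1, 2 and 3. Without vehicle replicate 2 the log2 fold-change was -1.01, which passes the 2-fold threshold. Olr1 and Scarb1 fell to a similar extent, and the change of Olr1 minus that of Scarb1 was 0.18, -0.25 and -0.03 (log2), with a mean of -0.03 ± 0.21 (SD, n = 3) that is smaller than its spread.

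Cd68 (ENSMUST00000018918_at) encodes macrosialin, a class D protein of late endosomes and lysosomes that binds oxLDL and serves as a general marker of macrophages. Its value was 13.25, 13.37 and 13.21 (log2) with vehicle and 13.51, 13.59 and 13.49 with oxLDL. The groups did not overlap, but the gap between them was only 0.13. The mean rose from 13.28 ± 0.08 to 13.53 ± 0.05 (SD, n = 3), a log2 fold-change of 0.26 (standard error 0.09, 95% interval 0.06 to 0.45, q = 0.0205 from limma). The differences within experiments were 0.26, 0.22 and 0.28, so the rise was small and even. The call was not firm, with a Benjamini-Hochberg adjusted p of 0.0534 from limma, and q-values of 0.0733, 0.0570 and 0.0611 without vehicle replicate 1, vehicle replicate 3 and oxLDL replicate 1. Without experiment 1 the q-value was 0.217 and without experiment 3 it was 0.0597. The settings in which the call was lost were all fitted without the pairing of the arrays. With same-numbered arrays as a block fitted as a random effect, the q-value was 0.0078 from limma. Cd68 lay between 13.21 and 13.59 on all 6 arrays, above the filter value of 8.74 in both groups. Markers of other peritoneal cells, and other scavenger receptors, were not analysed here because the reference gene table did not pair their rows with symbols.

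**Figure D3:**
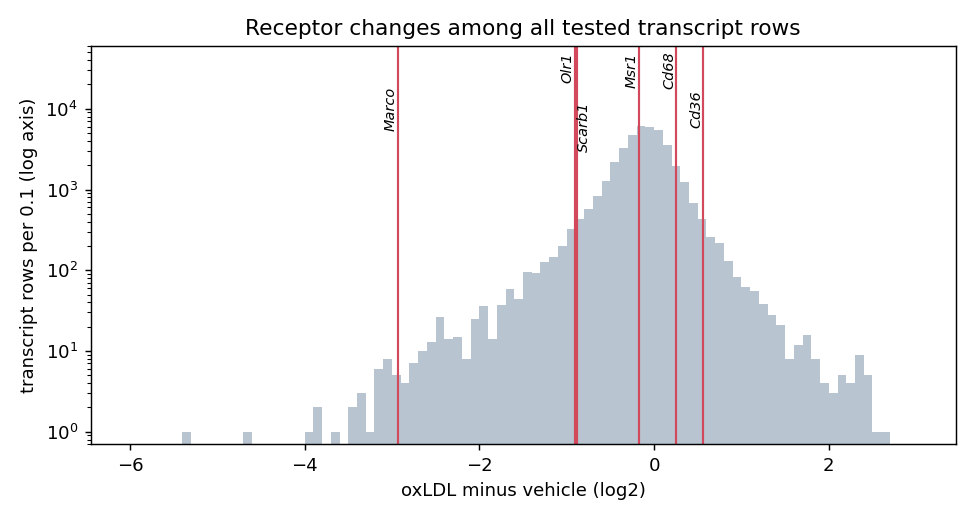
Distribution of the log2 fold-change (oxLDL minus vehicle, horizontal axis) over the 40845 tested rows, in bins of 0.1 with a logarithmic vertical axis, and red lines at the 6 receptors. Marco lies in the far lower tail of the deposited values, while Msr1 lies near the middle of the distribution.

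The median log2 fold-change was -0.10 over the tested rows, which are the brighter ones, and 0.002 over all 81690 rows. When the deposited values were quantile-normalized across the 6 arrays, the median of the tested rows moved to 0.02. Scarb1 then fell by 0.73 and Olr1 fell by 0.76 on the log2 scale, and the rises of Cd36 and Cd68 were 0.62 and 0.30. The fall of Olr1 within experiments was then -0.66, -0.85 and -0.78, and with median centring of the arrays in its place it was -0.74, -0.89 and -0.90. Marco still fell by 2.86, and Msr1 was at -0.09 (q = 0.154 from limma). With the same-numbered arrays as a replicate block fitted as a random effect, the calls of all 6 members were as reported, with q-values of 0.0078 for Cd68 and 0.053 for Msr1 from limma.

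**Figure D4:**
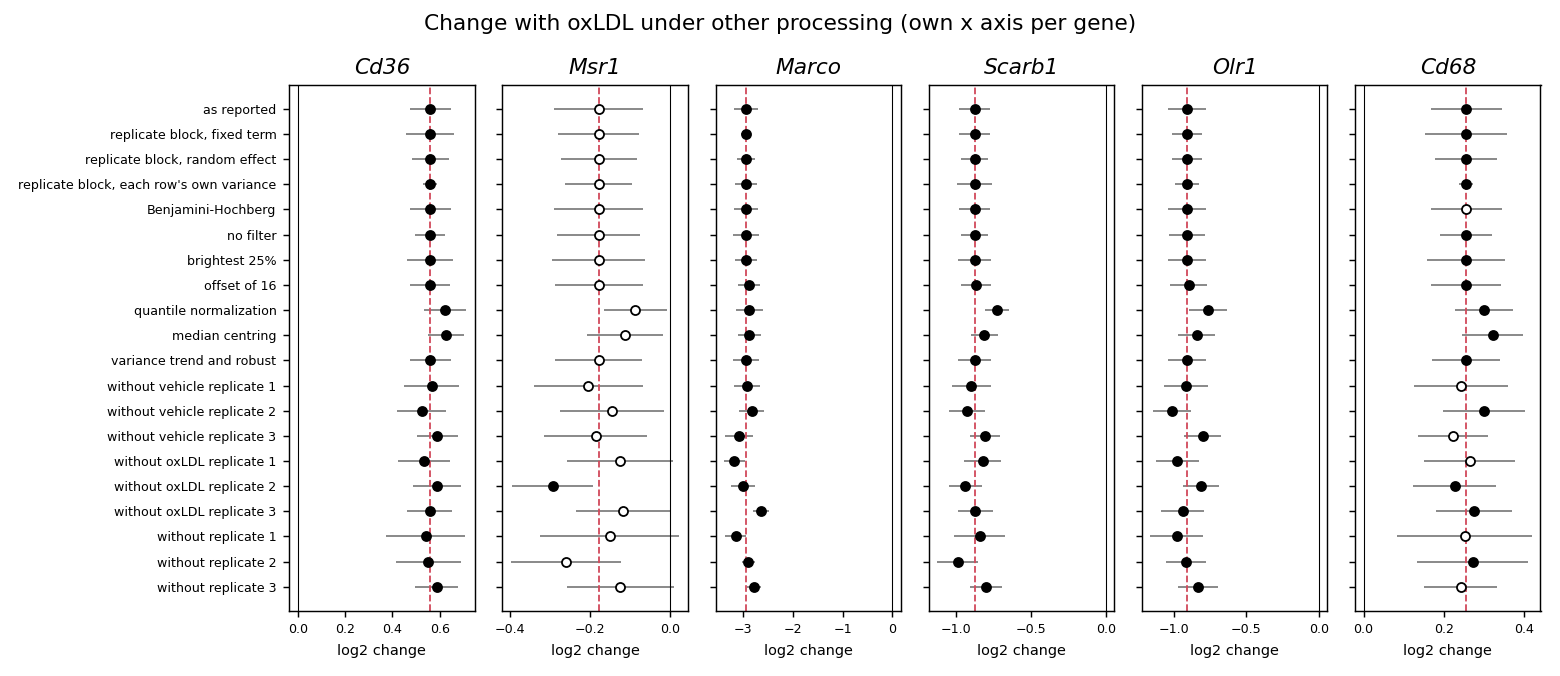
Log2 fold-change of each receptor (horizontal axis, drawn separately for each gene) as reported and under 19 other settings, with bars for the standard error, filled symbols for a q-value (an adjusted p in the row for Benjamini-Hochberg) below 0.05 and a dashed line at the reported value. All 6 receptors keep their direction in the 12 settings in which the value can differ, and over all 19 settings Msr1 passes the threshold only without oxLDL replicate 2 and Cd68 misses it in 6.

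Other rows of the table were ranked by the likeness of their pattern over the 6 arrays to the member that rose most and the member that fell most. Because the arrays form 2 groups, a high correlation mainly says that a row moved in the same direction with little spread. For Cd36, the rows most alike were ENSMUST00000156071_at (Pearson's r 0.999 over 6 arrays), with means of 9.34 with vehicle and 11.02 with oxLDL, and ENSMUST00000063607_at (r 0.999), with means of 9.35 and 10.39. For Marco they were ENSMUST00000114311_at (r 0.999), with means of 12.58 and 12.02, and ENSMUST00000172912_at (r 0.999), with means of 12.65 and 12.12. The Marco-like rows thus fell by far less than Marco itself. An r above 0.95 was shared with Cd36 by 1210 tested rows and with Marco by 2035, so such likeness was common. Rows within 0.1 (log2) of a member on all 6 arrays were left out of this ranking, and there were 3 for Cd36, 3 for Scarb1, 1 for Msr1 and 0 for Marco, Olr1 and Cd68. The genes of these rows are not paired with the identifiers in the tables used.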

How the data were processed

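The 6 samples were hybridized to Affymetrix Mouse Exon 1.0 ST arrays and grouped by their titles. The authors quantile-normalized the probe values without background adjustment, summarized them with PLIER over CustomCDF probe sets of Ensembl transcripts, and deposited the log2 values used here. The log base was inferred from their range (5.95 to 14.42), and any offset before the logarithm is not given in the sources used here. Detection calls were not used here. Rows with a mean above the median of all rows (8.74) were tested with limma 3.58.1 in R 4.3.3 (empirical Bayes, prior proportion 0.1, no covariate, two-sided), and q-values followed Storey's method (lambda 0.05 to 0.95, spline with 3 degrees of freedom). This fit was tested on simulated data. Figures were drawn with matplotlib 3.10.9. Every member was named whatever its values, and the rule for similar rows took the 2 most correlated with the largest rise and the largest fall. The members, lists and tests were chosen with earlier results of these data known.

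The wells of an experiment came from 1 pool of cells, and same-numbered arrays deviated together from their group means (r 0.51, 0.67 and 0.58 for experiments 1, 2 and 3, and below 0 for other pairs), so the numbers pair the arrays. The methods name no term for the pair, and the replicate block is an alternative. Precision is limited by having only 3 arrays in a group. Upstream sequences came from RefSeq for GRCm38.p6, matched by symbol for 4 of 6 members.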

Additional observations from a re-analysis of the deposited data

How the results depend on the processing

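Of 19 alternatives, 7 leave the log2 fold-changes as they are by construction and bear only on the q-values. In the other 12, all 6 members kept their direction. Under all 19, Cd36, Marco, Scarb1 and Olr1 kept a q-value below 0.05. With Benjamini-Hochberg adjustment in place of q-values, Cd68 (0.26, adjusted p = 0.0534 from limma) was no longer called, which left 1 member higher. With an array or a pair of arrays left out, Cd68 ranged from 0.22 to 0.30 (log2), Msr1 from -0.29 to -0.12, and the number of members higher from 1 to 2. The number lower ranged from 3 to 4, the added member being Msr1 without oxLDL replicate 2. The number at least 2-fold lower ranged from 1 to 2, the added member being Olr1 without vehicle replicate 2. Over all 40845 tested rows, 280 were higher and 1001 lower by at least 2-fold. Among the brightest 25% of rows, 642 of the 20423 tested were lower by at least 2-fold.

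With the replicate block as a fixed term, limma gave all rows 1 common standard deviation of 0.124, so its q-values say little about single rows. The block left the log2 fold-changes as they were, at 0.56 for Cd36, -0.18 for Msr1, -2.93 for Marco, -0.88 for Scarb1, -0.91 for Olr1 and 0.26 for Cd68, and no call changed with it, either as a random effect or with each row's own variance (q-values of 0.0365 to 0.0411 for the 5 called members). With each row's own variance the smallest q-value of any row, from its own t-test, was 0.0340, so that setting hardly separates the called rows. A common standard deviation (0.138) was also used without experiment 2. Signal over background was not assessed for Marco with oxLDL.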
